A study of Mus musculus with 8 samples.

Results

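The genes described here encode proteins mainly of the receiving side of glutamatergic synapses. They are ionotropic and metabotropic glutamate receptors, the scaffold proteins of the postsynaptic density, the kinase CaMKII and the neuroligins. Some of the receptors act at presynaptic terminals or are also expressed by astrocytes. The 35 members were taken by gene symbol from a list given by name, and each symbol occurred once in both count tables, of 54532 genes for PTS + RS against RS and of 28229 genes for the RGFP109 experiment. They comprised 4 AMPA receptor genes, 6 NMDA receptor genes, 5 kainate receptor genes, 6 metabotropic (mGlu) receptor genes, the delta receptor gene Grid1, 4 membrane-associated guanylate kinases (MAGUKs), 5 Shank and Homer genes, 2 CaMKII genes and 2 neuroligins. RNA-seq was performed on 8 libraries of C57BL/6 mouse brain labelled Day 21, with 2 libraries in each group. The PTS + RS group had photothrombotic stroke, a cortical infarct made by light, followed by restraint stress in a tube, and the RS group had restraint stress without stroke. In the RGFP109 experiment all 4 libraries came from mice with photothrombotic stroke and restraint stress, given either the HDAC3 inhibitor RGFP109 (60 mg/kg under the skin once per day, for 2 weeks by the protocol, though a longer course is described elsewhere in the paper) or NaCl, as the label calls the control, although the protocol dissolved RGFP109 in DMSO, cyclodextrin and sodium acetate. The PTS + RS and RS libraries were all labelled cortex, while in the RGFP109 experiment replicate 1 of each group was labelled cortex and replicate 2 amygdala. The methods say that samples were pooled and barcoded, but neither they nor the labels say whether a library held 1 mouse or a pool of mice. The p-values therefore measure the spread between libraries, which may be technical. In the RGFP109 experiment that spread also includes the difference between tissue labels when treatments are compared, and between treatments when tissue labels are compared.

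Glutamate released at excitatory synapses opens AMPA receptors for fast transmission and, when the membrane is depolarised, NMDA receptors, whose calcium current activates CaMKII and drives plasticity. Kainate receptors tune release and excitability, group I mGlu receptors such as mGlu5 couple to calcium stores, and group II and III mGlu receptors mostly dampen release. MAGUK, Shank and Homer proteins form the layered scaffold beneath the receptors, and neuroligins bridge it to the presynaptic membrane.

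The tissue labels were checked first, because receptor genes differ strongly between brain regions. Summed over 10 hippocampal markers, the 4 libraries of PTS + RS and RS held between 808 and 1145 CPM (counts scaled to one common, normalised library size) and HDAC3 inhibitor replicate 1 held 820.3, against 235 to 302 in the other libraries. C1ql2, a dentate granule cell gene, was at 63.8 to 97.6 CPM in those 5 libraries and at 0.51 to 3.26 in the rest. This hippocampal list was chosen after the first results had been seen. NaCl replicate 1, labelled cortex, held 1505 CPM over 10 olfactory bulb markers against 38.0 to 58.4 in the other 7 libraries, with Cdhr1 at 534 CPM against 5.66 to 10.2 elsewhere. Both amygdala-labelled libraries held 1370 and 1508 CPM over 10 striatal markers, against 176 to 259 in the cortex-labelled libraries. They also had the highest sums over 14 cortical markers (2980 and 2731 CPM against 1854 to 2534). Mef2c alone made up 662 and 527 of these cortical sums, against 127 to 406 in the cortex-labelled libraries. Not all 14 were highest there. Neurod6 (50.8 and 52.7 CPM) and Neurod2 (96.2 and 95.5) were lower than in PTS + RS, RS and HDAC3 inhibitor replicate 1. Over 12 amygdala markers the amygdala-labelled libraries held 370 and 388 CPM, above 5 of the cortex-labelled libraries (301 to 307) and below NaCl replicate 1 (810), where Meis2 alone made up 628. Meis2 also made up 144 and 148 of the amygdala-labelled sums, against 43.2 to 62.2 in those 5 libraries. Meis2, Tac2, Crh, Cartpt and Isl1 were above those 5 libraries in both amygdala-labelled ones, Nts was below them, and the rest of the list overlapped. Choroid plexus markers summed to 1528 to 3854 CPM in 4 cortex-labelled libraries but to 48.5 in PTS + RS replicate 2 and 45.5 in NaCl replicate 1. The labels are therefore used below only as names, and the part of dissected tissue in the results was not tested. Library totals lay between 15902013 and 21712033 counts, mitochondrial genes took 3.59% to 4.55% of them, and the 35 members together took 0.97% to 1.38%.

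**Figure D1:**
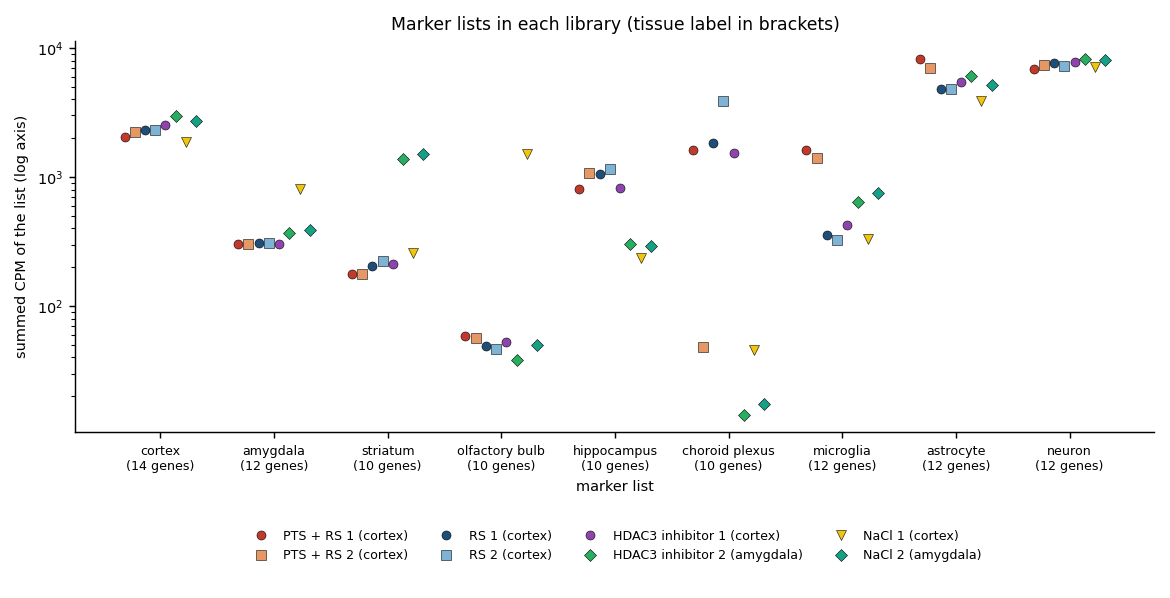
Summed CPM on a log axis (vertical) for 9 marker lists (horizontal) in each of the 8 libraries, 1 point per library with its tissue label. NaCl replicate 1 stands apart for olfactory bulb markers at 1505 CPM, both amygdala-labelled libraries for striatal markers, and 5 cortex-labelled libraries for hippocampal markers.

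Every member had at least 103 counts in every library. In FPKM, the authors' level per gene length, which was made for each table separately, Camk2a (CaMKII alpha, an abundant postsynaptic kinase) stood first with a median of 449 over the 8 libraries, from 165 in NaCl replicate 1 to 568 in PTS + RS replicate 2. Camk2b (CaMKII beta, which binds actin) at 146 and Gria1 (the GluA1 subunit, inserted during potentiation) at 141 followed, and each of these was above the other in 4 of 8 libraries. A second tier held Shank1 (64.0), Dlg4 (PSD-95, the main MAGUK, 56.5), Grik5 (the GluK5 kainate subunit, 56.2), Gria2 (GluA2, which blocks calcium entry, 55.6) and Grin1 (GluN1, obligatory in NMDA receptors, 46.6). Grik1 (GluK1, 2.38 FPKM) and Grm8 (mGlu8, a presynaptic autoreceptor, 1.04 FPKM) were the lowest. Of the 34 pairs of neighbours in the order of medians, 5 had the higher member above the lower in all 8 libraries, so most neighbours did not differ beyond the spread over libraries.

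The widest ranges between libraries were those of Grm4 (mGlu4, 9.94-fold in FPKM), Homer3 (9.20-fold) and Grik4 (GluK4, 8.45-fold), and the narrowest those of Grik2 (GluK2, 1.31-fold) and Gria2 (1.33-fold). NaCl replicate 1 was the lowest library for 13 members and the highest for 9, that is the extreme library for 22 of 35. Its Grik4 was 1.43 FPKM against 3.47 to 12.1 elsewhere, and its Grm4 was 21.1 FPKM against 2.12 to 6.14.

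**Figure D2:**
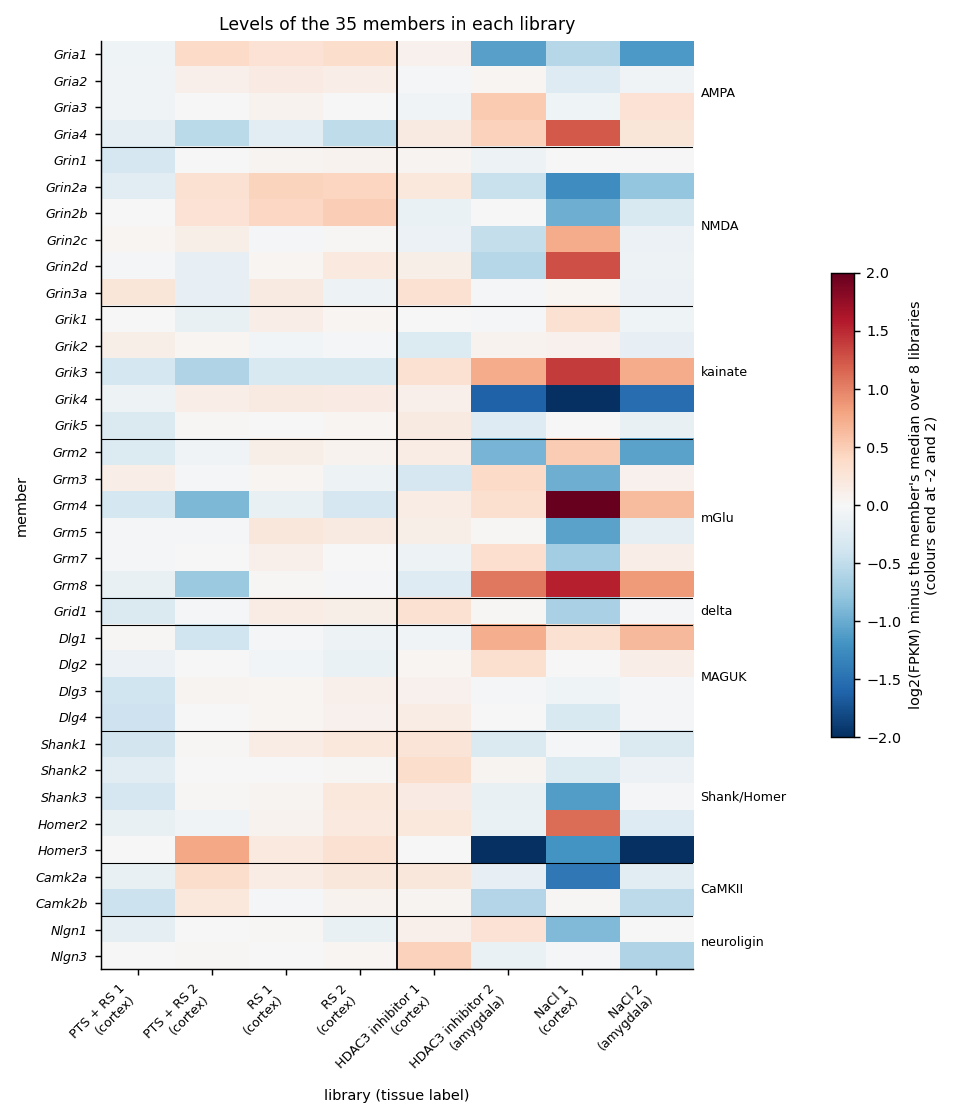
Heat map of log2(FPKM) of each member (rows, by role) in each library (columns, with the tissue label) after subtracting the member's median over the 8 libraries; red is higher and blue lower. The column of NaCl replicate 1 differs most from the rest, and Homer3 and Grik4 are low in both amygdala-labelled libraries as well.

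RefSeq promoter windows on GRCm38.p6 were given for 22 of the 35 members. The 250 bases before the start site are shown for Grik3, Gria4, Grm2 and Grm3, the 4 members with the widest range between libraries among those with 1 RefSeq start whose window lay wholly outside the gene in the deposited table. Grik3, Gria4 and Grm2 had their highest level in NaCl replicate 1 and Grm3 its lowest. Capitals mark the GC box, the letters GGGCGG on either strand.
Grik3, chr4:125490446-125490695, plus strand: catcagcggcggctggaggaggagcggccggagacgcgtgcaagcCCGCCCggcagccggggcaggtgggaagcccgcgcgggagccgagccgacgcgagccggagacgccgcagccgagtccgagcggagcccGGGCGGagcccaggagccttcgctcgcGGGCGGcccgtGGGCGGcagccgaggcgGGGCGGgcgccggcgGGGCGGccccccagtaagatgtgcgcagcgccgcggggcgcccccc
Gria4, chr9:4796235-4796484, minus strand: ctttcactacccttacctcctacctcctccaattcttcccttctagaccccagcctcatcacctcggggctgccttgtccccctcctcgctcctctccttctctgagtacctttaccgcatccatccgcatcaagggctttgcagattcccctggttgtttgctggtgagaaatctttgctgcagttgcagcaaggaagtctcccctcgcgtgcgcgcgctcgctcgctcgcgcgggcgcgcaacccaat
Grm2, chr9:106656110-106656359, minus strand: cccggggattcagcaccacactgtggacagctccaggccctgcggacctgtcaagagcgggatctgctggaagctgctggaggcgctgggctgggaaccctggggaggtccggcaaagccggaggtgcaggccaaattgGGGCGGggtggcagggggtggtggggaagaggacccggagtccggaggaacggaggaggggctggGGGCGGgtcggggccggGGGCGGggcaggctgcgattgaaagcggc
Grm3, chr5:9725353-9725602, minus strand: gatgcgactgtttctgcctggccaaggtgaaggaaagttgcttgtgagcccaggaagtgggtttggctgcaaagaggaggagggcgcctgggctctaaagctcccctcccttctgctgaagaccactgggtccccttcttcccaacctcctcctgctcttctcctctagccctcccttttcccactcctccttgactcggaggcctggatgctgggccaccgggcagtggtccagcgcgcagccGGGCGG
The window of Grik3 (GluK3) held 6 GC boxes, that of Grm2 (mGlu2) 3, that of Grm3 (mGlu3) 1 and that of Gria4 (GluA4) 0. Of the 22 members 15 held a GC box in a window, or 17 of their 35 windows (48.6%), against 32.7% of all 32851 promoter windows of that length. The cAMP response element TGACGTCA, searched on both strands, was in no member window and in 1.55% of all windows. The matches are a description of letters, and no binding was measured here.

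The comparison of PTS + RS with RS asked which transcripts differ when restraint stress follows a cortical infarct. Most members were lower in the PTS + RS group, by small amounts: 28 of 35 had a negative and 7 a positive log2 fold change, with a median of -0.15 against -0.0015 over all 17581 genes tested. No member was called at an adjusted p under 0.05 (quasi-likelihood test in edgeR, Benjamini-Hochberg correction over all genes tested), where 2.96% of all genes were called higher and 0.586% lower. At an unadjusted p under 0.05, 7 members were lower and 0 higher, against 7.55% and 10.3% of all genes. Both PTS + RS libraries lay below both RS libraries for 18 members and above them for 2, where 24.5% and 25.7% of all genes were separated in these ways. In bulk tissue, fewer cells of a type and less RNA per cell cannot be told apart.

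Of the 6 NMDA receptor genes, 4 were below the RS range in both PTS + RS libraries. Grin2a (GluN2A, a subunit that rises with maturation, chr16:9567898-9995560 on the minus strand in GRCm38) was at 206 and 293 CPM in the PTS + RS libraries and at 324 and 318 in the RS libraries. Both PTS + RS values were below both RS values, and the first was the lower by far. Its fitted value was -0.36 (standard error 0.15, 95% interval -0.72 to -0.0066, adjusted p = 0.27, edgeR). Grin2b (GluN2B, prominent in development and in slow currents) was at 605 and 739 CPM against 801 and 846 (-0.29 on the log2 scale, 95% interval -0.57 to -0.018, adjusted p = 0.25, edgeR). Grin1 was at 362 and 450 CPM against 475 and 479, again without overlap (-0.23, 95% interval -0.50 to 0.036). Grin2d (GluN2D, found in interneurons) had a log2 fold change of -0.21. It overlaps Kdelr1 on the other strand, which had 2.01-fold as many counts over the whole gene. Whether the counting used strand is not stated, and the reads in the shared stretch were not counted apart. Grin2c (GluN2C, also expressed by astrocytes) went the other way, at 78.3 and 82.5 CPM against 74.7 and 77.2, with a log2 fold change of 0.082 (95% interval -0.099 to 0.26). Grin3a, the GluN3A subunit that limits calcium flow, overlapped between the groups.

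Of the 4 AMPA receptor genes, 2 were below the RS range in both PTS + RS libraries, by small amounts. Gria1 was at 806 and 1120 CPM in the PTS + RS libraries and at 1049 and 1096 in the RS libraries. The RS values lay between the PTS + RS values, so the groups overlapped (log2 fold change -0.15, 95% interval -0.52 to 0.21). Gria2 was at 833 and 936 CPM against 970 and 955, lower in both PTS + RS libraries, and the log2 fold change of -0.12 had a 95% interval of -0.36 to 0.11. Gria3 (GluA3) was at 218 and 227 CPM against 239 and 230 (-0.079), and Gria4 at 77.6 and 60.1 against 74.2 and 61.2 (0.023).

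Of the 6 mGlu genes 5 were lower, 4 of them without overlap. Grm5 (mGlu5, a postsynaptic group I receptor, chr7:87584168-88134907 on the plus strand) was at 267 and 269 CPM in the PTS + RS libraries and at 318 and 308 in the RS libraries. The PTS + RS values were nearly equal and both were below the RS values. Its log2 fold change was -0.22 (standard error 0.073, 95% interval -0.39 to -0.050), and its adjusted p of 0.17 in edgeR was the smallest of all members. Grm2, an autoreceptor of cortical and dentate terminals, was at 76.8 and 88.2 CPM against 100.3 and 96.4 (-0.25, adjusted p = 0.21, edgeR). Grm8 (-0.41) and Grm4 (-0.36) had the largest negative values with Grin2a, but they were low in PTS + RS replicate 2 above all, with Grm4 at 18.6 and 12.7 CPM against 21.4 and 18.7, and Grm8 at 9.34 and 6.16 against 10.5 and 10.2. Grm3, which astrocytes express as well, was at 41.3 and 36.4 CPM against 38.8 and 34.96 (0.075), and Grm7 (mGlu7, at the release site) had a log2 fold change of -0.054.

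Of the 5 kainate receptor genes 4 were lower and Grik2 was higher, none by more than 0.16 on the log2 scale. Grik4 was at 60.1 and 70.2 CPM in the PTS + RS libraries against 72.6 and 71.9 (-0.15, 95% interval -0.38 to 0.077). Grik2 was 1 of the 2 members above both RS libraries, at 99.3 and 93.7 CPM against 87.7 and 88.7, with a log2 fold change of 0.13 (95% interval -0.048 to 0.31). Grik1, Grik3 and Grik5 had log2 fold changes of -0.16, -0.16 and -0.13. The delta receptor gene Grid1 (GluD1, a synaptic organiser that binds cerebellins) was at 57.5 and 68.9 CPM against 77.8 and 75.7, below the RS range in both libraries (-0.28, standard error 0.10, adjusted p = 0.22, edgeR).

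Of the scaffold genes, Dlg4 was at 569 and 752 CPM in the PTS + RS libraries and at 775 and 801 in the RS libraries. It lay below the RS range in both, narrowly in replicate 2 (-0.25, 95% interval -0.58 to 0.070, adjusted p = 0.39, edgeR). Shank1 (525 and 689 CPM against 747 and 780) and Shank3 (278 and 353 against 362 and 403), the large scaffolds that tie PSD-95 complexes to Homer and actin, had log2 fold changes of -0.33 and -0.28. Homer2, which links mGlu5 to Shank, was at 74.7 and 78.3 CPM against 86.7 and 94.0 (-0.24, standard error 0.081, adjusted p = 0.19, edgeR). Homer3 had the largest positive value of all members, 0.18, but it was at 31.2 and 53.6 CPM against 35.8 and 38.8, so the RS values lay between those of the PTS + RS libraries. Dlg1 (SAP97), Dlg2 (PSD-93), Dlg3 (SAP102) and Shank2 had values between -0.22 and 0.038.

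Camk2a was at 3049 and 4259 CPM in the PTS + RS libraries and at 3710 and 3936 in the RS libraries, with 1 PTS + RS library on either side of the RS values (-0.066, 95% interval -0.46 to 0.33). Camk2b was at 1000.1 and 1538 against 1311 and 1393 (-0.091). Nlgn1 (neuroligin 1, at excitatory synapses) and Nlgn3 (at both kinds of synapse) had log2 fold changes of -0.029 and -0.0061, and the 4 values of Nlgn3 lay between 58.7 and 59.8 CPM.

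**Figure D3:**
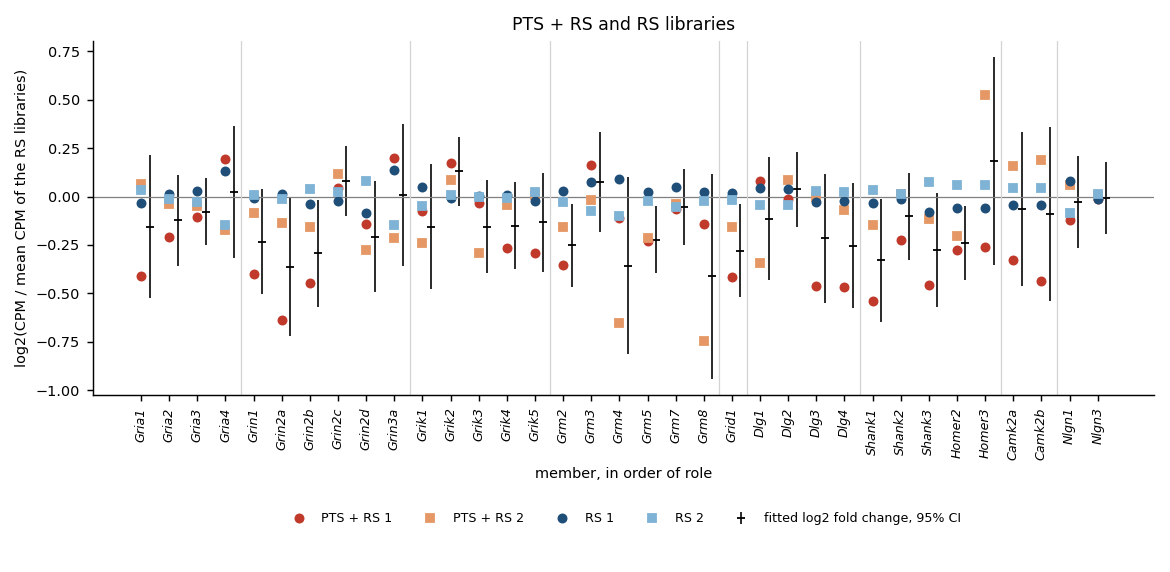
For each member (horizontal, in order of role), log2 of the CPM in each PTS + RS and RS library over the mean CPM of the RS libraries (points), and the fitted log2 fold change with its 95% confidence interval (black). PTS + RS replicate 1 lies below both RS libraries for 27 members and replicate 2 for 21, and 28 of the 35 fitted values are below 0.

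The 2 PTS + RS libraries differed from each other in these genes. Replicate 1 was below replicate 2 for 25 members, with a median log2 ratio of -0.17 against 0.0096 over all genes, whereas the median between the RS libraries was 0.0012. The members' median log2 fold change was -0.068 without PTS + RS replicate 1 and -0.23 without PTS + RS replicate 2. Without PTS + RS replicate 2, 17 members were called lower and 0 higher (6.96% of all genes lower), and without PTS + RS replicate 1, 5 were called lower (4.13% of all genes) and Homer3 higher (5.58%). Grm5 was the only member called lower both ways, at -0.23 and -0.22 on the log2 scale, and in each of these fits the lone library was assumed to vary like the others. Without the filter on low counts, 4 members were called lower (2.38% of all genes): Grin2a, Grin2b, Shank1 and Shank3. Beside these values, all 12 microglial markers were called higher in the PTS + RS group (1631 and 1397 CPM summed, against 356 and 323), none at 0. The 12 neuronal markers summed to 6918 and 7405 against 7631 and 7235 CPM with 0 called. The 10 hippocampal markers summed to 808 and 1078 CPM against 1058 and 1145, with replicate 1 the lowest as for the members, and 1 was called lower. The part of cell or tissue makeup in the members' values was not tested.

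Other genes of the glutamate synapse were counted by role. Of 15 auxiliary receptor subunits, 6 were higher and 9 lower, of 15 further postsynaptic proteins 3 were higher and 12 lower, and 0 were called in either list. Of 6 vesicular and plasma membrane glutamate transporters, 3 were higher and 3 lower, and Slc1a3 (GLAST, the astrocyte uptake carrier) was called higher. Slc1a3 was at 769 and 720 CPM against 492 and 495 (log2 fold change 0.59, standard error 0.087, adjusted p = 0.015, edgeR). Slc1a3 is itself among the 12 astrocyte markers, of which 5 were called higher with Slc1a3 counted. Among the synapse genes not called, Cacng8 (the AMPA receptor partner TARP gamma-8, rich in hippocampus) was at 83.9 and 133 CPM against 170 and 205, and was picked out after its values were seen.

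The comparison of HDAC3 inhibitor with NaCl asked how RGFP109 changed transcription in mice with stroke and restraint stress. No member was called, and at an adjusted p under 0.05 no gene was called at all in edgeR (0.0% higher and 0.0% lower of 17565), with 88 genes higher and 118 lower at an unadjusted p under 0.05 and 1 gene called lower by DESeq2. The biological coefficient of variation was 32.1% here against 11.4% for PTS + RS and RS. The replicates of each group here carried different tissue labels, so the 32.1% includes differences between those labels. Of the members 22 were higher and 13 lower with RGFP109 (median log2 fold change 0.15, against -0.016 over all genes), and 1 in each direction had an unadjusted p under 0.05, against 0.501% and 0.672% of all genes. Both inhibitor libraries were above both NaCl libraries for 9 members and below them for 2, against 12.8% and 13.8% of all genes.

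The members differed more in the cortex-labelled pair than in the amygdala-labelled pair. Between inhibitor replicate 1 and NaCl replicate 1, 6 members were at least 2-fold higher (8.07% of all genes) and 5 at least 2-fold lower (7.41%), and the median size of the log2 ratio was 0.63 against 0.34 over all genes. Between inhibitor replicate 2 and NaCl replicate 2, the amygdala-labelled pair, 0 members differed 2-fold either way (1.38% and 1.46% of all genes), and the median size was 0.13 against 0.17. All 35 members were within 0.5 on the log2 scale there. With 1 library of each kind per tissue label, these ratios have no test.

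Grik4 (chr9:42518135-42944493, minus strand) had the largest cortex-labelled ratio, at 68.1 CPM with the inhibitor and 8.65 with NaCl (log2 ratio 2.96), but at 20.7 and 22.2 CPM in the amygdala-labelled pair. Of the 4 libraries, HDAC3 inhibitor replicate 1 was the highest, within the 60.1 to 72.6 CPM of the PTS + RS and RS libraries, and NaCl replicate 1 was the lowest. The fitted value of Grik4 was 1.52, with a 95% interval of -0.36 to 3.40. Grm4 was at 26.3 CPM with the inhibitor and 128 with NaCl under the cortex label, and at 29.6 and 36.9 under the amygdala label. Here NaCl replicate 1 was the high library (log2 fold change -1.56, standard error 0.60, 95% interval -3.11 to -0.0051). Camk2a was at 3898 CPM against 1249 in the first pair and at 2973 against 2861 in the second, with NaCl replicate 1 far below the other 3 libraries (0.74, 95% interval -0.47 to 1.95).

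Grin2a had the smallest p of the members that were higher. It was at 274 and 174 CPM with the inhibitor and at 101 and 139 with NaCl, without overlap and in the same direction in both pairs (log2 ratios 1.43 and 0.33). The log2 fold change of Grin2a was 0.90 (standard error 0.30, 95% interval 0.11 to 1.69, unadjusted p = 0.033 and adjusted p = 0.9997 in edgeR). Grin2b was likewise above both NaCl libraries, at 545 and 597 CPM against 307 and 487 (0.53, 95% interval -0.21 to 1.26), while Grin1 was at 470 and 421 against 460 and 452 (-0.033). Grin2c was below them, at 69.5 and 54.5 CPM against 128 and 69.9 (-0.68), and Grin2d had the second largest negative value, -0.96 (25.0 and 15.6 CPM against 57.2 and 21.6).

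Gria1 was at 909 and 403 CPM with the inhibitor and at 580 and 384 with NaCl, where the tissue labels separated the values more than the treatment did (0.45, 95% interval -0.75 to 1.64). Gria2 was at 846 and 884 CPM against 734 and 826, above both NaCl libraries by little (0.15, 95% interval -0.38 to 0.68). Grm5 was at 294 and 275 CPM against 131 and 238 (0.62), and Grm8, the third most negative member at -0.71, was at 8.56 and 21.2 against 30.4 and 18.6. Dlg4 (833 and 748 CPM against 611 and 740) and Shank2 (316 and 257 against 208 and 231) were above both NaCl libraries with log2 fold changes of 0.23 and 0.39. Shank3 was at 390 and 313 CPM against 162 and 343, with opposite signs in the 2 pairs (1.26 and -0.13). Homer3 had the second largest positive value, 0.94, from 31.6 and 6.22 CPM against 13.8 and 5.82.

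**Figure D4:**
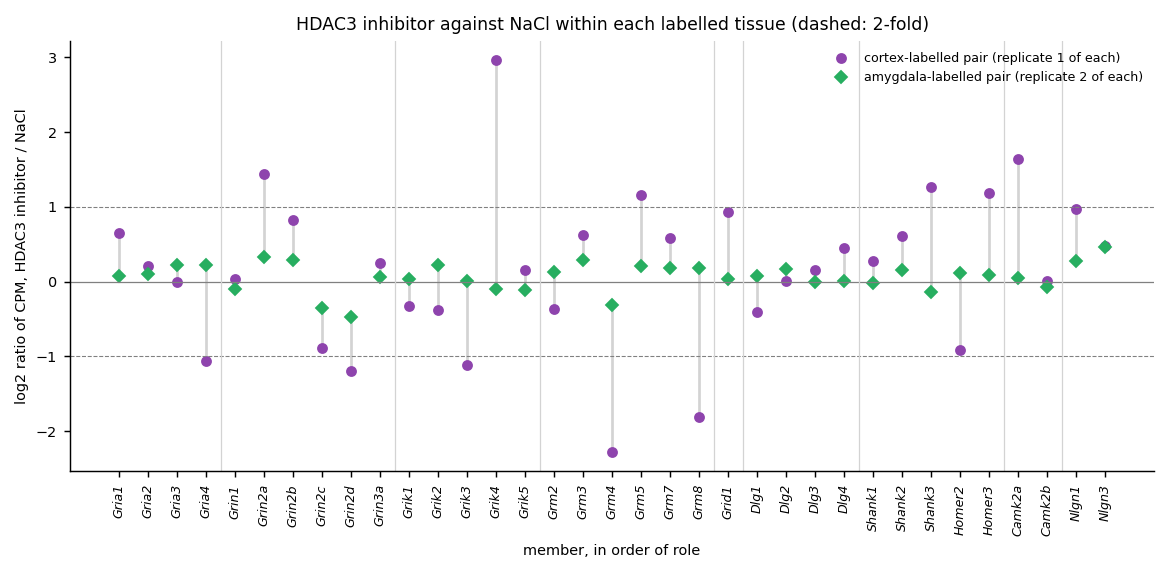
Log2 ratio of CPM, HDAC3 inhibitor over NaCl, for each member (horizontal, in order of role) in the cortex-labelled pair (circles) and in the amygdala-labelled pair (diamonds), 1 library each, with dashed lines at 2-fold. In the cortex-labelled pair 11 members lie at or beyond 2-fold, from Grm4 at -2.28 to Grik4 at 2.96, and in the amygdala-labelled pair 0 do.

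The members' median log2 fold change was 0.083 and 0.23 without HDAC3 inhibitor replicate 1 and 2, and 0.088 and 0.17 without NaCl replicate 1 and 2. Without NaCl replicate 2, Grm4 alone was called lower (-2.18 on the log2 scale, adjusted p = 0.039, edgeR, where 0.419% of all genes were called lower). Over the same 4 libraries, 15 auxiliary subunits, 15 postsynaptic proteins and 6 transporters had 22 higher and 14 lower values with 0 called. The olfactory bulb markers were high in NaCl replicate 1. The inhibitory neuron markers summed there to 2717 CPM over 10 genes against 865 to 1039 in the other 3 libraries, with Gad1 alone at 1572. This list was split. Gad1, Gad2, Slc32a1, Dlx1, Dlx6os1 and Npy were highest in NaCl replicate 1, Pvalb, Sst and Lhx6 were lowest there, and Vip lay between. The part of these markers in the ratios was not tested.

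Amygdala-labelled and cortex-labelled libraries were compared across treatments. Of the members 15 were higher and 20 lower under the amygdala label, with a median log2 fold change of -0.10 (-0.18 without HDAC3 inhibitor replicate 2), and 0 were called (0.0% of all genes called higher and 0.0% lower in edgeR, where DESeq2 called 291 higher and 104 lower). At an unadjusted p under 0.05, 3 members were higher and 5 lower, against 6.81% and 4.4% of all genes. The 2 groups did not overlap for 5 members that were higher and 12 that were lower, against 21.6% and 22.4% of all genes. Of the 35 members, 21 had the same direction with the inhibitor and with NaCl, and the share of all genes that did was not counted.

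Homer3 (chr8:70282827-70294361, plus strand) had the largest value, at 6.22 and 5.82 CPM in the amygdala-labelled libraries and at 31.6 and 13.8 in the cortex-labelled libraries (log2 fold change -1.91, standard error 0.44, 95% interval -3.05 to -0.77, adjusted p = 0.30, edgeR). The low values were nearly equal and the high ones were not. Homer3 also shares bases with Ddx49 on the other strand, which had 47.4% as many counts. Grm2 was at 48.0 and 43.9 CPM against 102 and 131, with the smallest p of the members (-1.35, standard error 0.18, 95% interval -1.81 to -0.88, adjusted p = 0.21, edgeR). Under each tissue label, the 1 inhibitor and 1 NaCl library were nearer to each other for Grm2 than for Grm4. Grm4 was at 29.6 and 36.9 CPM against 26.3 and 128 (-1.21).

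Gria1 was at 403 and 384 CPM under the amygdala label against 909 and 580 (-0.92, 95% interval -1.61 to -0.23). Gria3 went the other way, at 326 and 280 CPM against 217 and 218 (0.48, 95% interval 0.062 to 0.89), and Gria2 was at 884 and 826 against 846 and 734 (0.11). Grm3 had the largest positive value, at 48.8 and 39.9 CPM against 29.8 and 19.2 (0.86, 95% interval 0.17 to 1.55), followed by Grm7 (0.60) at 73.5 and 64.5 against 54.7 and 36.4 and Dlg1 (0.55) at 209 and 199 against 120 and 158. Camk2b was at 886 and 932 CPM against 1383 and 1369, a log2 fold change of -0.60 (95% interval -1.06 to -0.14), and Homer2 at 74.8 and 68.9 against 95.4 and 180.3 (-0.94). Grin2a, Grin2b, Grm5, Dlg4, Shank3 and Camk2a all overlapped between the tissue labels.

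The calls under the tissue labels rested on which cortex-labelled library was kept. Without HDAC3 inhibitor replicate 1, 12 members were called higher and 11 lower (15.1% and 13.6% of all genes), and without NaCl replicate 1, 5 were called higher and 10 lower (8.27% and 5.51%). Camk2a was called higher in the first of these fits (1.23) and lower in the second (-0.41), and Grin2a likewise (0.63 and -0.79). DESeq2 called 2 members lower, Grm2 and Homer3, where it called 0.583% of all genes lower. The other genes of the synapse gave 18 higher and 18 lower with 0 called, and 10 of 10 striatal markers were higher, 0 of them called.

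The make-up of each receptor class followed from these levels. Within the AMPA receptor genes, Gria1 took 60.3% to 66.6% of the summed FPKM in the PTS + RS and RS libraries and 62.1% in HDAC3 inhibitor replicate 1, but 38.0% and 39.4% in the amygdala-labelled libraries and 48.5% in NaCl replicate 1. Gria2 took 21.7% to 24.2% in the cortex-labelled libraries and 32.4% and 32.9% in the amygdala-labelled ones. The ratio of Gria1 to Gria2 in FPKM was therefore 2.49 to 3.08 in the first set, 2.03 in NaCl replicate 1 and 1.17 and 1.20 under the amygdala label. Gria4 took 16.4% in NaCl replicate 1 against 3.43% to 10.8% elsewhere.

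Within the NMDA receptor genes, Grin1 took 38.4% to 49.1% in all libraries. Grin2b exceeded Grin2a everywhere, by a ratio of 1.78 and 1.92 in the RS libraries, 2.11 and 1.82 in the PTS + RS libraries, and 1.44 to 2.54 in the RGFP109 experiment. In NaCl replicate 1, Grin2c (24.5%) was above Grin2b (11.9%), which held for no other library. Grik5 made up 60.4% to 67.8% of kainate receptor FPKM throughout, while Grik4 took 13.6% to 14.3% in PTS + RS and RS, 12.01% in HDAC3 inhibitor replicate 1, 4.57% and 4.71% under the amygdala label and 1.53% in NaCl replicate 1. Grik3 took 7.46% to 10.2% in PTS + RS and RS, 12.5% in HDAC3 inhibitor replicate 1, 21.1% and 20.2% under the amygdala label and 27.1% in NaCl replicate 1.

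Among the mGlu genes, Grm5 was the largest at 36.1% to 39.9% in 7 libraries and 16.7% in NaCl replicate 1, where Grm2 (35.1%) and Grm4 (27.9%) were above it. Grm2 exceeded Grm3 in the cortex-labelled libraries (ratios of 1.16 to 4.26) and was below it in both amygdala-labelled libraries (0.61 and 0.69). Camk2a exceeded Camk2b 3.38-fold to 4.10-fold in 7 libraries and 1.12-fold in NaCl replicate 1. The shares in PTS + RS and RS libraries differed by less than those between tissue labels for Gria1, Gria2 and Grm2, as values without a test. For Grik4, both amygdala-labelled shares lay between those of HDAC3 inhibitor replicate 1 and NaCl replicate 1. The Grik4 share therefore did not separate the tissue labels in the RGFP109 experiment.

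**Figure D5:**
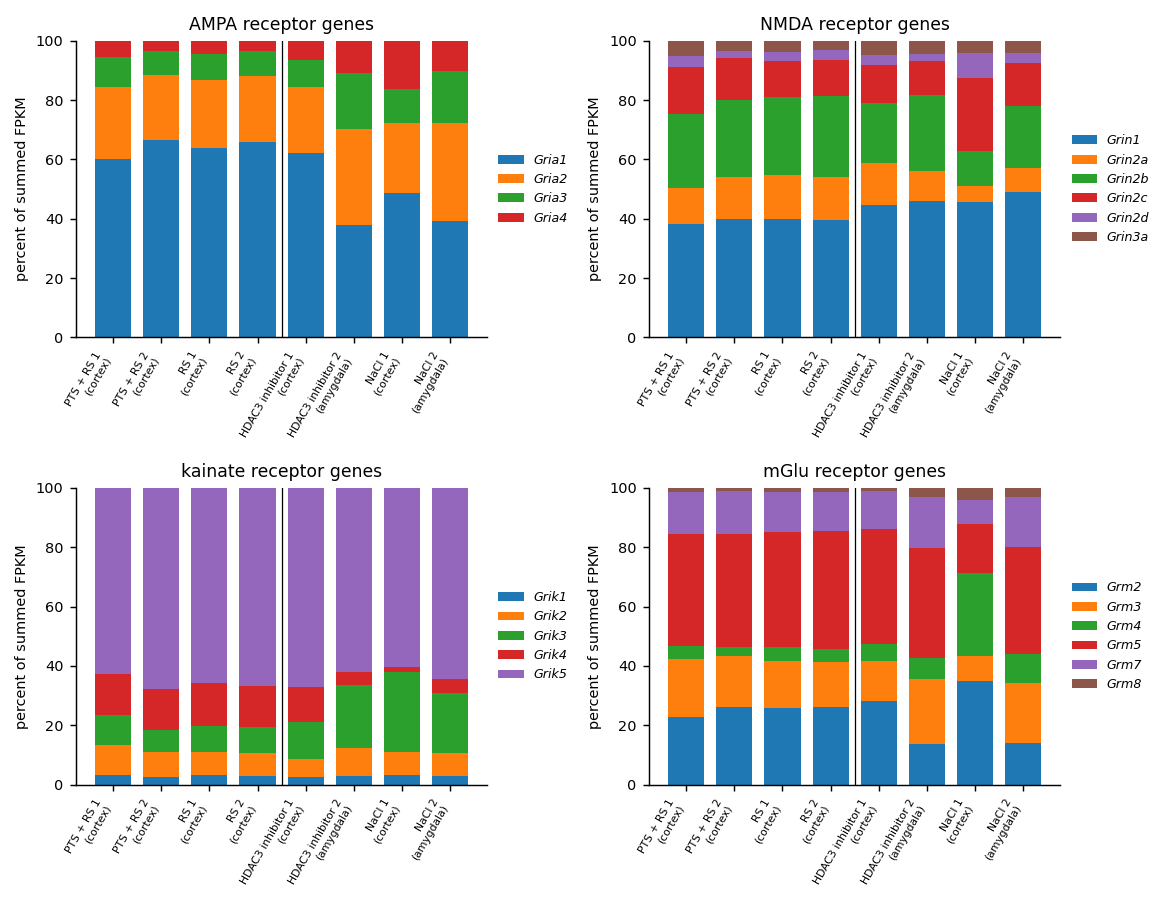
Percent of the summed FPKM of the AMPA, NMDA, kainate and mGlu receptor genes (vertical) taken by each gene (colours) in each library (horizontal, with the tissue label). The first 5 libraries are close to each other, the amygdala-labelled libraries have a Gria1 share of 38.0% and 39.4%, and in NaCl replicate 1 Grm4 takes 27.9% of the mGlu genes.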

How the data were processed

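Total RNA of mouse brain was sequenced in 8 libraries. Per the methods and the submitters' processing notes, the authors aligned reads to GRCm38 with STAR 2.4.0 and counted them per gene with HTSeq 0.6.1; the deposited counts are raw, and the deposited FPKM values were made by the authors per gene length and library. The library kit differs between the labels and the methods, and the strand setting of the counting is not given in the sources used here. The deposited tables also hold the authors' own fold changes and p-values, which were not used, and 8 further columns of per-library values were left out. Library totals were 15902013 to 21712033 counts, and the lowest member value in any library was 103 counts.

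Counts were filtered with filterByExpr, scaled by TMM and tested over all genes with edgeR 4.0.16 (quasi-likelihood, adjusted p under 0.05). DESeq2 1.42.0 and limma 3.58.1 in R 4.3.3 were alternatives, as were RLE scaling, no filter, FPKM with a pseudocount of 1 or 0.1, a 2-fold limit, a replicate or treatment term and leaving out each library. CPM ratios used a prior count of 2. Plots were drawn with matplotlib 3.10.9 and tables joined with pandas 2.3.3 (Python 3.11.15). The procedure was tested on simulated data. The members and lists were chosen with earlier results of these data known. Named with full values were the 3 largest changes each way in each comparison and 9 core genes (Gria1, Gria2, Grin1, Grin2a, Grin2b, Grm5, Dlg4, Shank3 and Camk2a); the other members were given to account for the whole list.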

Additional observations from a re-analysis of the deposited data

Results flagged for a closer look

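For 16 of the 35 members the ratio of HDAC3 inhibitor to NaCl had opposite signs in the cortex-labelled and the amygdala-labelled pair. Each pair is 1 library against 1, so the difference was not tested, and many ratios are close to 0. The share of all genes with opposite signs was not counted, so the number is not shown to be particular to the members. All values are log2 ratios of CPM, with the amygdala-labelled pair first.

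Of the receptors, Grik4 was at -0.10 and 2.96, Grm8 at 0.19 and -1.81, Grik3 at 0.0020 and -1.11 and Gria4 at 0.22 and -1.07. In these 4 the cortex-labelled pair differed at least 2-fold and the other pair did not. The smaller ones were Grik2 at 0.22 and -0.38, Grm2 at 0.13 and -0.36, Grik1 at 0.038 and -0.32, Grik5 at -0.12 and 0.16, Grin1 at -0.10 and 0.032, and Gria3 at 0.22 and -0.0082.

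Of the scaffold and kinase genes, Shank3 was at -0.13 and 1.26 and Homer2 at 0.12 and -0.92. Dlg1 was at 0.076 and -0.40, Shank1 at -0.012 and 0.28, Dlg3 at -0.0020 and 0.16, and Camk2b at -0.074 and 0.015. The NaCl library of the cortex-labelled pair is the one with 1505 CPM of olfactory bulb markers, and the part of that tissue in the ratios was not tested.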

How the results depend on the processing

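With 2 libraries a group, the number of calls varied with the library left out. For PTS + RS against RS, leaving out each library in turn gave 0 to 1 members called higher, 0 to 17 lower, and 339 to 1413 and 32 to 1278 genes of all. For HDAC3 inhibitor against NaCl it gave 0 to 1 members lower, and 0 to 15 and 0 to 78 genes higher and lower. Between tissue labels it gave 0 to 12 members higher, 0 to 11 lower, and 0 to 2831 and 0 to 2552 genes. In each such fit the lone library is assumed to vary like the others.

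Values of the members named by rule changed sign 12 times when a library was left out and not under the other alternatives; further members, not listed here, also changed sign. For PTS + RS against RS, Camk2a ranged from -0.33 to 0.15, Gria1 from -0.41 to 0.061 and Homer3 from -0.26 to 0.52 (log2 fold change), the extremes coming without PTS + RS replicate 1 and without PTS + RS replicate 2. For HDAC3 inhibitor against NaCl, Gria1 ranged from -0.26 to 0.92, Grin1 from -0.11 to 0.046 and Homer3 from -0.66 to 1.69.

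Between tissue labels, Camk2a ranged from -0.41 to 1.23, Dlg4 from -0.15 to 0.29, Grin2a from -0.79 to 0.63, Grm4 from -1.94 to 0.35, Grm5 from -0.18 to 0.97 and Shank3 from -0.24 to 1.02, the extremes coming without NaCl replicate 1 and without HDAC3 inhibitor replicate 1.

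With all libraries, no filter on low counts gave 4 members lower and 1119 genes higher and 716 lower for PTS + RS against RS, and 13 genes higher between tissue labels. DESeq2 gave 166 genes lower for PTS + RS, 1 gene lower for the inhibitor, and 2 members lower with 291 genes higher and 104 lower between tissue labels. Limma-trend gave 304 genes higher at log2(FPKM + 1) and 314 at log2(FPKM + 0.1), and 68 lower at the former, for PTS + RS, and 1 gene higher between tissue labels at either pseudocount. A 2-fold limit left 16 genes lower for PTS + RS. The other 101 summary values stayed within their limits. The members' medians without 1 library were -0.23 to -0.068, 0.083 to 0.23 and -0.18 to -0.070 in the 3 comparisons. They moved by less than the standard deviation between replicates (0.085, 0.080 and 0.11). At the farthest extreme in each comparison, the median differed from its value with all libraries by a factor over 1.5. The causes were not tested.

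Same-numbered libraries share no source in the labels beyond the tissue label, and their deviations correlated at 0.035 for PTS + RS and RS and 0.30 for the RGFP109 experiment. With the replicate block 0 members were called in either comparison, the members' medians were -0.15 and 0.13, and 228 genes were lower for PTS + RS.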
